A study of Macaca mulatta with 9 samples.

Results

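Interleukins and the chains of their receptors were counted in kidneys of genetically modified pigs after grafting into rhesus macaques. They were taken as all probes whose name begins with IL and a digit, 45 of the 767 on the panel. They comprised 22 ligands (the receptor antagonist IL1RN among them), the secreted IL-18 binding protein IL18BP, and 22 receptor chains. RNA from fixed and embedded renal biopsies had been counted on an nCounter panel for human organ transplants, in which probes hybridise to single RNA molecules without amplification. The 9 libraries form 3 groups of 3 that the labels name 1KO.1TG early R, 3KO.7TG late R and 3KO.7TG early bx. They are called here the 1KO.1TG grafts, the late 3KO.7TG grafts and the early 3KO.7TG grafts, after their donor lines. The altered genes of either line are not listed in the labels, R and bx are not spelled out, and no age, day or treatment of a recipient is given. Every sample is given as rhesus macaque and male. Whether the samples of a group were different animals is not stated, and p-values then measure only their spread, which may be technical in part.

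Interleukins are secreted proteins through which leukocytes and tissue cells signal to each other, and most of them act through receptors built from a private chain and a chain shared by several cytokines. The IL-1 family starts and amplifies inflammation and is held in check by an antagonist and a decoy receptor. Cytokines that use the common gamma chain keep lymphocytes alive and drive their division, while the IL-6 family signals through the shared chain gp130 in leukocytes and kidney cells. In a pig graft both the donor tissue and the infiltrating macaque cells can make these transcripts. The probes were designed on human sequence, and which species each one reads was not checked. In bulk tissue, fewer cells of a type and less RNA per cell cannot be told apart.

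Total counts lay between 657340 and 1620151 in 8 libraries. Replicate 3 of the 1KO.1TG grafts held only 21725 counts, 51.4-fold fewer than the median of the other 8, and is called the low-yield library below. Scaled levels are given as CPM, counts brought to a common library size after trimmed-mean scaling, on which 1 count is worth 17.0 CPM in the low-yield library and 0.66 to 1.66 CPM in the others. The 5 kidney tubule markers read here (UMOD, AQP1, AQP2, SLC12A3 and LRP2) marked the tissue, and 2 to 4 of them were above background in each library. Their summed level varied widely within groups, with 9343, 824 and 9800 CPM in the 1KO.1TG grafts, 13498, 4289 and 7280 CPM in the late 3KO.7TG grafts, and 50367, 34123 and 7707 CPM in the early 3KO.7TG grafts.

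Receptor chains were more often measurable than the interleukins themselves. The 4 probes for viral genes gave at most 17 counts in any library, and a member was taken as above background in a library where it exceeded 17 counts. By this limit 28 of the 45 members were above background in at least 5 of the 9 libraries, 18 of the 22 receptor chains, 9 of the 22 ligands and IL18BP. In all 8 larger libraries 21 members (46.7%) were above background, against 66.8% of all 767 probes. No library held IL12A, IL12B, IL13, IL17A, IL2, IL22, IL23A, IL4 or IL5 above the limit. These 9 ligands, which include the signature cytokines of T helper cell subsets (IL4, IL5 and IL13 of the type 2 subset, IL17A and IL22 of the type 17 subset) and the T cell growth factor IL2, gave between 1 and 16 counts throughout. They were not detectable at this depth, which does not show that they were absent. A further 8 members exceeded the limit in 1 to 4 libraries: IL18RAP, IL1RL1 and IL27 in 4, IL21 and IL23R in 3, IL1A and IL1R1 in 2, and IL17F in 1.

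**Figure D1:**
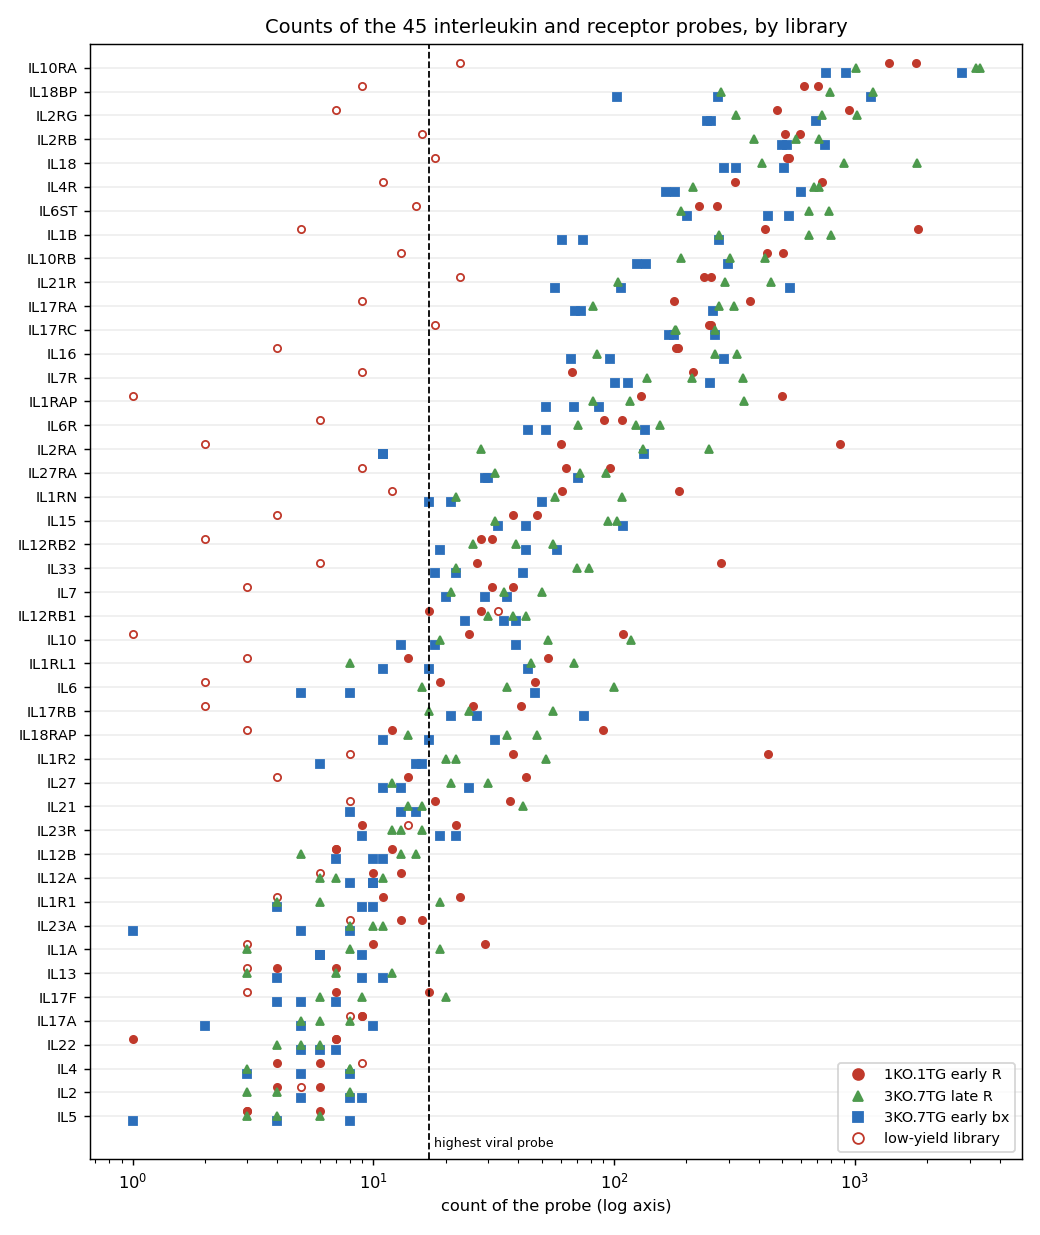
Count of each of the 45 probes (log axis) in each library, ordered by the median of the 8 larger libraries. Filled circles are the 1KO.1TG grafts (1KO.1TG early R), triangles the late 3KO.7TG grafts (late R), squares the early 3KO.7TG grafts (early bx) and open circles the low-yield library, and the dashed line is the highest count of a viral probe, 17. The 9 ligands nowhere above background lie left of the line in every library, and the low-yield library exceeds it for 5 members.

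In the low-yield library 5 members exceeded the limit, IL12RB1 with 33 counts, IL10RA and IL21R with 23 each, and IL17RC and IL18 with 18 each, against 25 to 33 members in the other libraries. The 9 ligands that were nowhere above background gave about as many counts there as elsewhere, the median of the other 8 libraries being 1.12 times its count (0.61 to 2.33 times over the 9 probes). For the 28 members above background in at least 5 libraries that ratio was 21.2 in the median. IL12RB1, the receptor chain shared by IL-12 and IL-23, stood apart from these 28: its 33 counts in the low-yield library matched the median of 32.5 counts in the others, so its counts did not follow library size. IL23R, the private chain of the IL-23 receptor, had 14 counts there against a median of 14.5. For both probes scaled levels therefore move inversely with library size, and the text gives no fold change for either. IL12RB1 remains among the 28 members of the fold-change figure and of the medians over them.

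**Figure D2:**
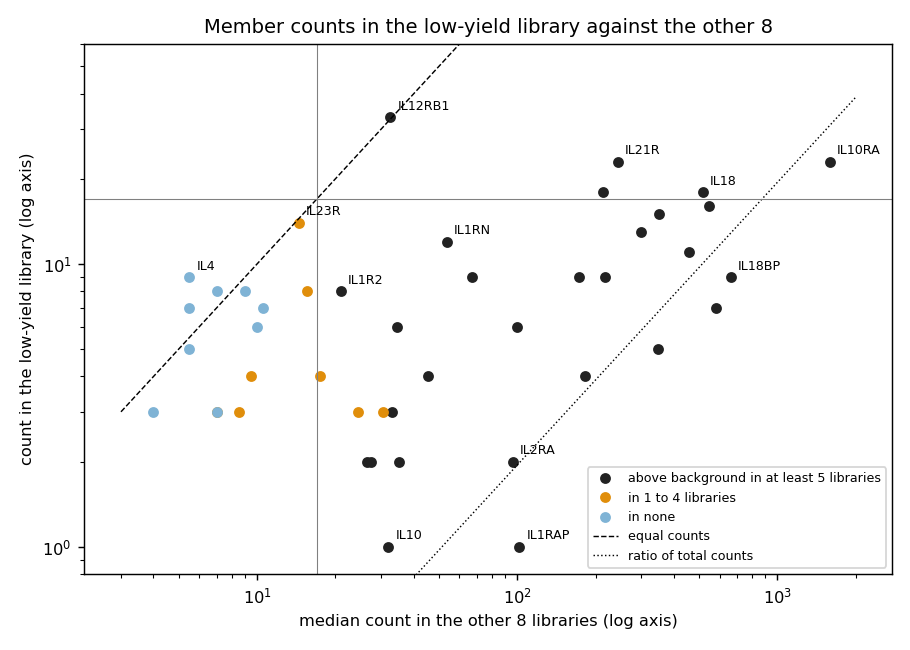
Count of each member in the low-yield library against its median count in the other 8 libraries, both on log axes. Black points were above background in at least 5 libraries, orange in 1 to 4 and blue in none. The dashed line marks equal counts, the dotted line the 51.4-fold ratio of total counts, and the grey lines the background limit of 17 counts. IL12RB1 and IL23R lie on the line of equal counts, while IL2RA and IL10RA lie near the ratio of total counts.

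The IL-1 family held several of the members that varied most between biopsies. IL1B, the main secreted form of IL-1, gave 424, 1839 and 5 counts in the 1KO.1TG grafts, 272, 646 and 794 in the late 3KO.7TG grafts, and 61, 74 and 273 in the early 3KO.7TG grafts (the third value of the 1KO.1TG grafts is always the low-yield library). IL1R2, a decoy receptor that binds IL-1 without signalling, gave 38, 436 and 8 counts in the 1KO.1TG grafts, 22, 52 and 20 in the late 3KO.7TG grafts, and 15, 16 and 6 in the early 3KO.7TG grafts. IL1RN, the antagonist that blocks the IL-1 receptor, gave 61, 187 and 12 counts in the 1KO.1TG grafts, 22, 108 and 57 in the late 3KO.7TG grafts, and 21, 17 and 50 in the early 3KO.7TG grafts. All 3 had their highest count in replicate 2 of the 1KO.1TG grafts. IL1RAP, the signalling partner chain of the IL-1 receptors, was also highest there, with 129, 497 and 1 counts in the 1KO.1TG grafts, 82, 348 and 117 in the late 3KO.7TG grafts, and 87, 52 and 68 in the early 3KO.7TG grafts. IL33, an alarmin kept in the nuclei of endothelial and epithelial cells, gave 27, 279 and 6 counts in the 1KO.1TG grafts, 22, 70 and 79 in the late 3KO.7TG grafts, and 22, 18 and 42 in the early 3KO.7TG grafts. Its receptor chain IL1RL1 gave at most 68 counts and IL1A, the other form of IL-1, at most 29. IL1R1, the signalling IL-1 receptor, gave 4 to 23 counts over all 9 libraries and was above the limit in 2.

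IL18, which is made as an inactive precursor in macrophages and tubular epithelium, was in contrast steady outside the late 3KO.7TG grafts. It gave 521, 535 and 18 counts in the 1KO.1TG grafts, 413, 1811 and 906 in the late 3KO.7TG grafts, and 322, 286 and 510 in the early 3KO.7TG grafts. Scaled to library size, IL18 spanned 454 to 500 CPM over the 5 larger libraries of the 1KO.1TG grafts and the early 3KO.7TG grafts, and 583, 1195 and 688 CPM in the late 3KO.7TG grafts. Its soluble inhibitor IL18BP, an interferon-gamma-induced protein, gave 614, 707 and 9 counts in the 1KO.1TG grafts, 277, 790 and 1192 in the late 3KO.7TG grafts, and 103, 270 and 1164 in the early 3KO.7TG grafts, so that its highest and lowest scaled levels were both found in the early 3KO.7TG grafts. IL18RAP, the accessory chain of the IL-18 receptor, gave 3 to 90 counts.

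Among the common gamma chain receptors, IL2RA spread most. IL2RA, the chain that gives the IL-2 receptor its high affinity and marks activated and regulatory T cells, gave 60, 865 and 2 counts in the 1KO.1TG grafts, 28, 132 and 249 in the late 3KO.7TG grafts, and 11, 11 and 133 in the early 3KO.7TG grafts. Its scaled level ranged 47.7-fold over the 8 larger libraries, with 770 CPM in replicate 2 of the 1KO.1TG grafts at the top and 16.1 CPM in replicate 1 of the early 3KO.7TG grafts at the bottom. IL2RG, the common gamma chain itself, gave 476, 943 and 7 counts in the 1KO.1TG grafts, 320, 728 and 1023 in the late 3KO.7TG grafts, and 244, 254 and 690 in the early 3KO.7TG grafts, and its scaled level ranged 2.35-fold. IL2RB, the signalling chain that IL-2 and IL-15 share on NK and T cells, gave 590, 511 and 16 counts in the 1KO.1TG grafts, 380, 571 and 713 in the late 3KO.7TG grafts, and 523, 501 and 750 in the early 3KO.7TG grafts. Its scaled level was higher in the 3 libraries of the early 3KO.7TG grafts than in any of the other 6.

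IL4R, the chain through which IL-4 and IL-13 act, gave 317, 732 and 11 counts in the 1KO.1TG grafts, 213, 711 and 676 in the late 3KO.7TG grafts, and 165, 180 and 597 in the early 3KO.7TG grafts. IL7R, the receptor chain that maintains resting T cells, gave 67, 212 and 9 counts in the 1KO.1TG grafts, 137, 343 and 210 in the late 3KO.7TG grafts, and 114, 101 and 250 in the early 3KO.7TG grafts. IL21R, which binds a helper cytokine of germinal centres, gave 236, 252 and 23 counts in the 1KO.1TG grafts, 104, 289 and 448 in the late 3KO.7TG grafts, and 57, 107 and 537 in the early 3KO.7TG grafts. Replicate 1 of the 1KO.1TG grafts had the lowest scaled IL7R of all 9 libraries, 64.2 CPM against 153 to 226 CPM elsewhere. Of the ligands of this family, IL15, which sustains NK and memory T cells, gave 38, 48 and 4 counts in the 1KO.1TG grafts, 32, 94 and 103 in the late 3KO.7TG grafts, and 43, 33 and 109 in the early 3KO.7TG grafts. IL7, a stromal survival factor for T cells, gave 38, 31 and 3 counts in the 1KO.1TG grafts, 21, 50 and 35 in the late 3KO.7TG grafts, and 29, 20 and 36 in the early 3KO.7TG grafts, and its scaled level varied least of the 45 members over the 8 larger libraries (SD 0.22 on the log2 scale). IL21 gave 8 to 42 counts.

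In the IL-6 family, the shared chain gave 190 to 784 counts in the larger libraries and the ligand at most 100. IL6ST, which encodes gp130, gave 225, 267 and 15 counts in the 1KO.1TG grafts, 190, 784 and 648 in the late 3KO.7TG grafts, and 435, 201 and 533 in the early 3KO.7TG grafts. IL6, an inducer of the acute-phase response, gave 19, 47 and 2 counts in the 1KO.1TG grafts, 16, 100 and 36 in the late 3KO.7TG grafts, and 5, 8 and 47 in the early 3KO.7TG grafts. IL6R, the chain that binds IL-6, gave 108, 91 and 6 counts in the 1KO.1TG grafts, 71, 124 and 155 in the late 3KO.7TG grafts, and 44, 52 and 134 in the early 3KO.7TG grafts. IL6R was among the steadier members, its scaled level ranging 1.85-fold over the 8 larger libraries, against 9.0-fold for IL6. IL27RA, the receptor of IL-27, gave 96, 63 and 9 counts in the 1KO.1TG grafts, 32, 93 and 72 in the late 3KO.7TG grafts, and 30, 29 and 71 in the early 3KO.7TG grafts, while IL27 itself gave 4 to 43.

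Of the IL-12 family, IL12RB2, the chain that marks type 1 helper cells, gave 31, 28 and 2 counts in the 1KO.1TG grafts, 26, 39 and 56 in the late 3KO.7TG grafts, and 43, 19 and 58 in the early 3KO.7TG grafts. IL12RB1 gave 28, 17 and 33 counts in the 1KO.1TG grafts, 43, 38 and 30 in the late 3KO.7TG grafts, and 24, 39 and 35 in the early 3KO.7TG grafts. The IL-12 and IL-23 subunits on the panel (IL12A, IL12B and IL23A) were nowhere above background.

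IL10RA, the leukocyte chain of the IL-10 receptor, had the highest count of the 45 probes in 7 of the 9 libraries (IL1B and IL12RB1 led in replicates 2 and 3 of the 1KO.1TG grafts). Probes differ in how well they bind, so this order of counts is not one of transcript levels. IL10RA gave 1388, 1791 and 23 counts in the 1KO.1TG grafts, 1009, 3316 and 3204 in the late 3KO.7TG grafts, and 757, 919 and 2781 in the early 3KO.7TG grafts. Its broadly expressed partner IL10RB gave 431, 504 and 13 counts in the 1KO.1TG grafts, 190, 425 and 302 in the late 3KO.7TG grafts, and 136, 125 and 298 in the early 3KO.7TG grafts. IL10, the anti-inflammatory ligand of both, gave 25, 109 and 1 counts in the 1KO.1TG grafts, 19, 118 and 53 in the late 3KO.7TG grafts, and 13, 18 and 39 in the early 3KO.7TG grafts. The scaled level of IL10 exceeded 70 CPM in replicate 2 of the 1KO.1TG grafts (97.1 CPM) and replicate 2 of the late 3KO.7TG grafts (77.9 CPM) and lay between 17.0 and 40.3 CPM elsewhere.

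IL17RA, the chain shared by the IL-17 receptors, gave 177, 368 and 9 counts in the 1KO.1TG grafts, 82, 316 and 273 in the late 3KO.7TG grafts, and 69, 73 and 258 in the early 3KO.7TG grafts. IL17RC, its partner for IL-17A and IL-17F and a chain of epithelial and stromal cells, gave 254, 247 and 18 counts in the 1KO.1TG grafts, 181, 263 and 179 in the late 3KO.7TG grafts, and 262, 169 and 178 in the early 3KO.7TG grafts. IL17RB, which binds IL-25, gave 41, 26 and 2 counts in the 1KO.1TG grafts, 25, 56 and 17 in the late 3KO.7TG grafts, and 75, 21 and 27 in the early 3KO.7TG grafts. The ligand IL17F gave 3 to 20 counts. IL16, a chemoattractant for CD4+ cells made mainly by lymphocytes, gave 184, 181 and 4 counts in the 1KO.1TG grafts, 85, 264 and 324 in the late 3KO.7TG grafts, and 66, 96 and 285 in the early 3KO.7TG grafts.

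A pair of biopsies held many of the extremes. Among the 28 members above background in at least 5 libraries, replicate 2 of the 1KO.1TG grafts had the highest scaled level of the 8 larger libraries for 11 (39.3%), against 22.3% of all 767 probes. Replicate 1 of the early 3KO.7TG grafts had the lowest for 14 (50%), against 22.7% of all probes. The 28 members had passed a limit on counts and the 767 probes had not, so these shares are not of like sets. These 2 libraries also held the extremes of the macaque-to-pig balance described further on.

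Both lines were sampled early, which gives the first comparison. No member was called between the 1KO.1TG grafts and the early 3KO.7TG grafts at an adjusted p under 0.05 with limma over all 767 probes, where 3 probes (0.391%) were called in all. The smallest adjusted p of a member was 0.299. At an unadjusted p under 0.05 in limma there were 4 members of 45 (8.89%), a smaller share than the 13.2% of all probes. Groups did not overlap for 5 members (11.1%), against 13.8% of all probes. R and bx run with the donor line in these samples and cannot be told apart from it.

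Of the 4 members with the smallest p, 3 belonged to the IL-1 family and lay higher in the 1KO.1TG grafts. IL1R2 had 36.4, 388 and 136 CPM in the 1KO.1TG grafts against 22, 26.5 and 5.34 CPM in the early 3KO.7TG grafts. The libraries of the 1KO.1TG grafts all lay above, but the 8 counts of the low-yield library were at background. On the log2 scale the fitted change was 3.16 ± 1.17 (SE; limma adjusted p = 0.299). No library of the early 3KO.7TG grafts exceeded the background limit for IL1R2. Set against that limit, the mean of the 2 libraries of the 1KO.1TG grafts that were above it was at least 5.41-fold higher. Among the alternatives IL1R2 was called only without replicate 1 of the 1KO.1TG grafts (log2 fold change 4.51, limma adjusted p = 0.0227), and without replicate 2 it stood at 1.71 (limma adjusted p = 0.601).

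IL1B had 407, 1638 and 84.9 CPM in the 1KO.1TG grafts against 89.5, 123 and 243 CPM in the early 3KO.7TG grafts. The low-yield library, with 5 counts, lay below all 3 libraries of the early 3KO.7TG grafts and the larger libraries above them. The log2 fold change was 1.91 ± 0.74 (limma adjusted p = 0.312). It came to 2.58 ± 0.65 when the low-yield library was left out (limma adjusted p = 0.0747). With a weight fitted per library it was 2.15 and passed (limma adjusted p = 0.0399), while with quantile scaling it was 0.53 and without scaling 0.55 (limma adjusted p = 0.855 and 0.952). IL1RN had 58.5, 167 and 204 CPM in the 1KO.1TG grafts against 30.8, 28.2 and 44.5 CPM in the early 3KO.7TG grafts, without overlap, although the 204 CPM are 12 counts of the low-yield library and within background (log2 fold change 1.56 ± 0.64, limma adjusted p = 0.340). When replicate 2 of the 1KO.1TG grafts was left out, the log2 fold change of IL1B was 1.11 and that of IL1RN 0.99 (limma adjusted p = 0.655 and 0.709).

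On the lower side IL6ST had 216, 238 and 255 CPM in the 1KO.1TG grafts against 638, 334 and 474 CPM in the early 3KO.7TG grafts. The groups did not overlap, and the 255 CPM are 15 counts of the low-yield library, within background (log2 fold change −1.0 ± 0.46, limma adjusted p = 0.373). IL2RB had 566, 455 and 272 CPM in the 1KO.1TG grafts against 767, 831 and 668 CPM in the early 3KO.7TG grafts, also without overlap (log2 fold change −0.75 ± 0.45, limma adjusted p = 0.536). Its 272 CPM are 16 counts of the low-yield library, again within background. IL23A was the remaining member without overlap, at background in every library. IL10RB had 413, 449 and 221 CPM in the 1KO.1TG grafts against 199, 207 and 265 CPM in the early 3KO.7TG grafts. The larger libraries lay above and the low-yield library, with 13 counts and within background, lay within the other group (log2 fold change 0.80 ± 0.41, limma adjusted p = 0.434). IL2RA had 57.5, 770 and 34.0 CPM in the 1KO.1TG grafts against 16.1, 18.3 and 118 CPM in the early 3KO.7TG grafts, with overlapping groups (log2 fold change 2.21 ± 1.22, limma adjusted p = 0.481).

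Without the low-yield library limma called 14 of 767 probes (1.83%) and again no member. At an unadjusted p under 0.05 there were then 6 members (13.3%, against 20.1% of all probes): IL1B, IL1R2, IL10RB, IL1RN, IL1RAP and IL6ST. Groups of 2 and 3 did not overlap for 12 members (26.7%), against 34.4% of all probes. In none of these counts did the members' share exceed that of all probes. The median log2 fold change was 0.31 over the 45 members and 0.15 over the 28 above background in at least 5 libraries, against −0.07 over all probes. Without the low-yield library these were 0.24, 0.35 and −0.0020. The 45 include members at background, for which 1 count is worth 17.0 CPM in the low-yield library. The 28 had passed a limit on counts and the panel had not, so these medians are not of like sets.

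**Figure D3:**
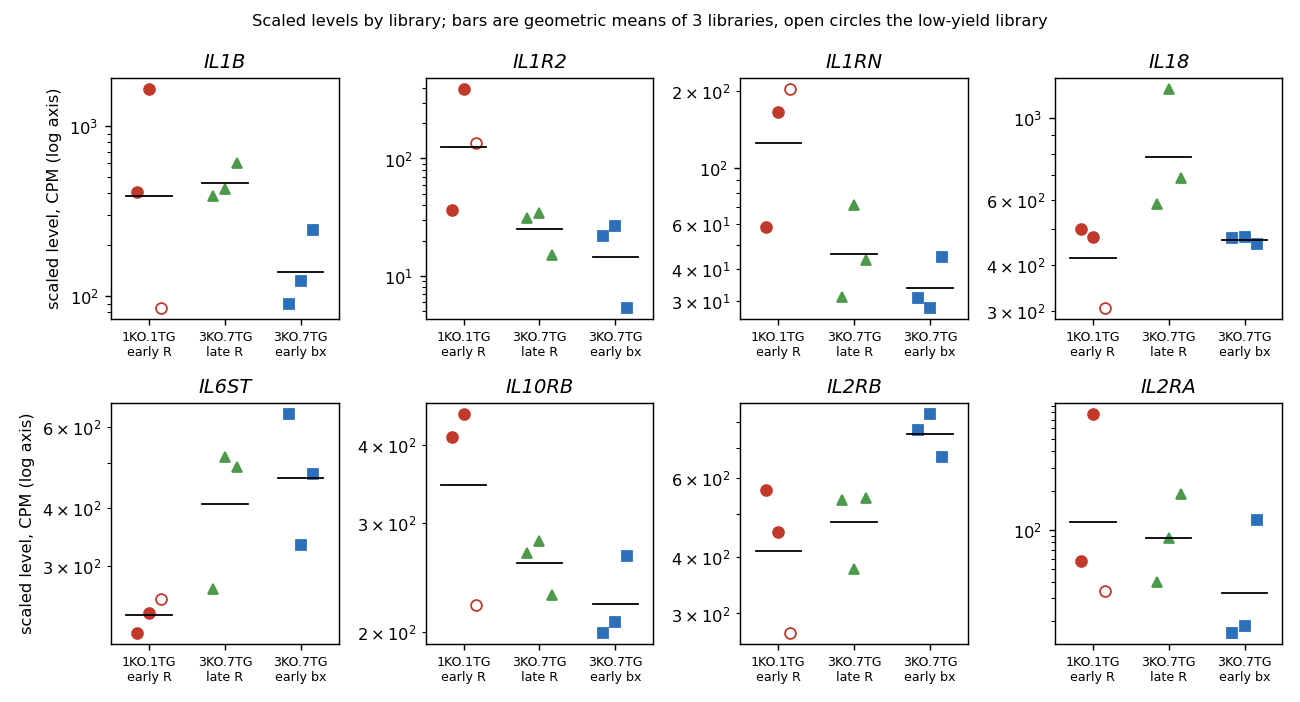
Scaled level (CPM, log axis) of 8 members in each library, with the 1KO.1TG grafts (1KO.1TG early R) left, the late 3KO.7TG grafts (late R) in the middle and the early 3KO.7TG grafts (early bx) right. Points are libraries, bars geometric means of 3, and open circles the low-yield library. IL1B separates both other groups from the early 3KO.7TG grafts except for the low-yield library, IL6ST is lowest in the 1KO.1TG grafts, IL2RB is highest in the early 3KO.7TG grafts, and IL18 is highest in the late 3KO.7TG grafts.

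Summed markers of neutrophils, monocytes and macrophages, platelets and NK cells were higher in the larger 1KO.1TG libraries than in the early 3KO.7TG grafts. B cell markers lay lower, at 80.6 and 93.5 CPM against 123, 103 and 122 CPM, with 0 to 4 of 5 above background. The 5 of 8 neutrophil markers on the panel (CSF3R, S100A8, S100A9, CEACAM3 and MMP9) summed to 5310, 49736 and 917 CPM in the 1KO.1TG grafts, 3544, 9809 and 1557 CPM in the late 3KO.7TG grafts, and 402, 387 and 591 CPM in the early 3KO.7TG grafts. All 5 were above background in every larger library except replicate 1 of the early 3KO.7TG grafts, where 4 were, and in the low-yield library none was. The 5 of 7 monocyte and macrophage markers (CD14, CD68, CD163, MRC1 and ITGAX) summed to 8185, 15323 and 1121 CPM in the 1KO.1TG grafts, 6014, 11814 and 7595 CPM in the late 3KO.7TG grafts, and 5370, 4110 and 5880 CPM in the early 3KO.7TG grafts. All 5 of these were above background in each larger library and 1 was in the low-yield library. Between the 1KO.1TG grafts and the early 3KO.7TG grafts all 5 neutrophil markers lay above 0, with a median log2 fold change of 3.01 and of 4.34 without the low-yield library. Without that library limma called 3 of these 5 higher. The median of the monocyte and macrophage markers was 0.01, and 1.37 without that library. The platelet markers PPBP and PF4 summed to 1679, 2882 and 187 CPM in the 1KO.1TG grafts, 282, 724 and 372 CPM in the late 3KO.7TG grafts, and 223, 124 and 181 CPM in the early 3KO.7TG grafts. Both were above background in every larger library and neither was in the low-yield library. Their median log2 fold change over the early 3KO.7TG grafts was 2.81, and without the low-yield library it was 3.65 and limma called both. The 5 NK cell markers summed to 5379, 3273 and 1410 CPM in the 1KO.1TG grafts, 2086, 1699 and 1380 CPM in the late 3KO.7TG grafts, and 2111, 2096 and 1772 CPM in the early 3KO.7TG grafts. Singly they went both ways between the 1KO.1TG and the early 3KO.7TG grafts, 3 above 0 and 2 below, with a median log2 fold change of 0.0020. Without the low-yield library again 3 lay above 0 and 2 below, with a median of 0.49. The part of these cells in the IL1B, IL1R2 and IL1RN values was not tested. The 8 T cell markers summed to 1501, 2741 and 1206 CPM in the 1KO.1TG grafts, 1688, 2342 and 2339 CPM in the late 3KO.7TG grafts, and 1157, 1205 and 2159 CPM in the early 3KO.7TG grafts, with 6 to 8 of them above background in each larger library and 0 in the low-yield library.

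Samples labelled R give a further comparison of the donor lines. Again no member was called between the 1KO.1TG grafts and the late 3KO.7TG grafts with limma, where 3 of 767 probes (0.391%) were called. IL1R2 was the 1 member with an unadjusted limma p under 0.05 (2.22% of members, against 6.65% of all probes). Groups did not overlap for 3 members (6.67%), against 11.5% of all probes, and these were IL1R2, IL6ST and IL18. Time and donor line cannot be told apart in it.

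IL1R2 had 36.4, 388 and 136 CPM in the 1KO.1TG grafts against 31.1, 34.3 and 15.2 CPM in the late 3KO.7TG grafts (log2 fold change 2.27 ± 0.95, limma adjusted p = 0.727). Leaving out single libraries, it was called without replicate 1 of the 1KO.1TG grafts (3.60, limma adjusted p = 0.0286) and stood at 0.82 without replicate 2 (limma adjusted p = 0.739). IL1RN had a log2 fold change of 1.10 ± 0.56, IL10RA of −1.11 ± 0.63, IL6ST of −0.77 ± 0.47 and IL18 of −0.78 ± 0.48 (limma adjusted p = 0.765 for IL1RN and 0.804 for the others). IL6ST had 216, 238 and 255 CPM in the 1KO.1TG grafts against 268, 517 and 492 CPM in the late 3KO.7TG grafts. In the low-yield library IL6ST gave 15 counts and IL1R2 gave 8, both within background. The value of IL10RA rested on the low-yield library, without which it was −0.39 ± 0.45 (limma adjusted p = 0.885). IL1B overlapped here, with 407, 1638 and 84.9 CPM in the 1KO.1TG grafts against 384, 426 and 603 CPM in the late 3KO.7TG grafts. Without the low-yield library 4 probes (0.522%) were called, none of them a member. IL1R2 and IL10RB then had an unadjusted limma p under 0.05 (4.44% of members, against 8.87% of all probes), and 5 members did not overlap (11.1%, against 23.9% of all probes).

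Within the 3KO.7TG line the question was how late and early grafts differed. No probe at all was called between the late 3KO.7TG grafts and the early 3KO.7TG grafts with limma (0% of 767), and 13 (1.69%) had an unadjusted p under 0.05, IL1B among them as the 1 member of 45 (2.22%). The groups did not overlap for 5 members (11.1%), against 10% of all probes: IL1B and IL18 lay above, IL2RB below, and IL2 and IL22 below at background counts. Time, and R as against bx, cannot be told apart here. The 3 comparisons share samples, each group standing in 2 of them.

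IL1B had 384, 426 and 603 CPM in the late 3KO.7TG grafts against 89.5, 123 and 243 CPM in the early 3KO.7TG grafts. The 3 late libraries lay close together and all above the early ones, and the fitted change was 1.68 ± 0.71 on the log2 scale (limma adjusted p = 0.990). IL18 had 583, 1195 and 688 CPM in the late 3KO.7TG grafts against 472, 475 and 454 CPM in the early 3KO.7TG grafts (log2 fold change 0.71 ± 0.45). IL2RB had 536, 377 and 542 CPM in the late 3KO.7TG grafts against 767, 831 and 668 CPM in the early 3KO.7TG grafts (−0.65 ± 0.44). IL6 and IL17RC completed the 5 smallest p-values with overlapping groups, at 1.02 ± 0.79 and −0.52 ± 0.43 (limma adjusted p = 0.990 for these 4 members). Of the 45 members 25 lay above 0 (55.6%), with a median of 0.09, against 49.2% and a median of −0.02 over all probes. Of the 28 above background in at least 5 libraries, which had passed a limit on counts, 20 lay above 0, with a median of 0.23. That number depended on the scaling, with 13 of the 28 above 0 on macaque reference probes and 26 without scaling.

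**Figure D4:**
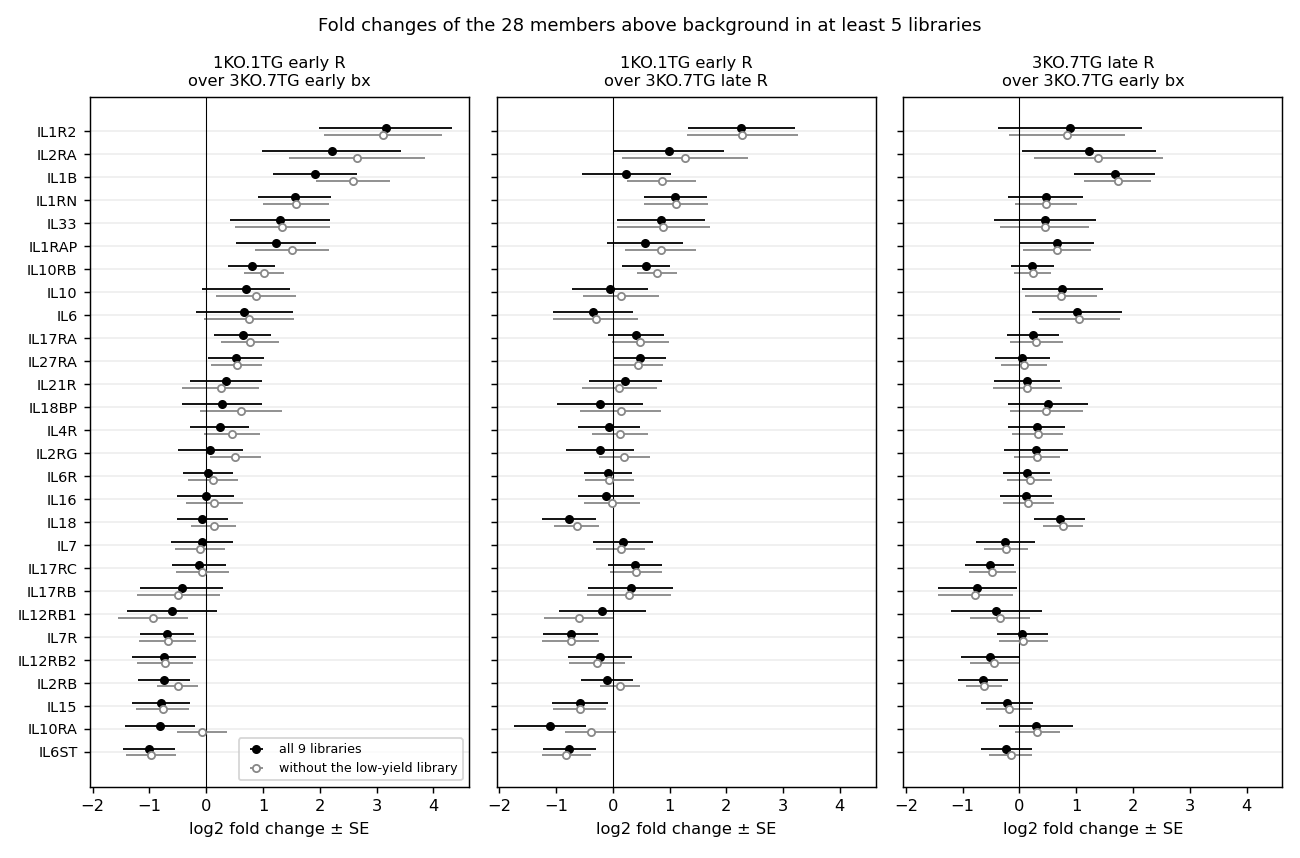
Log2 fold change with its standard error of the 28 members above background in at least 5 libraries, in the 3 comparisons, with all 9 libraries (black) and without the low-yield library (grey, open). IL1R2, IL2RA, IL1B and IL1RN stand at the top and IL6ST at the bottom of the first comparison, and IL10RA moves towards 0 without the low-yield library. IL12RB1 is shown although its counts did not follow library size.

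Outside the members, genes that carry interleukin signals were also mostly uncalled. Of the JAK-STAT list, the kinases, transcription factors and inhibitors below most of these receptors, 14 of 16 genes were on the panel and none was called in any of the 3 comparisons with all 9 libraries. In the 1KO.1TG grafts against the early 3KO.7TG grafts 3 of the 14 lay above 0 with a median log2 fold change of −0.52, which was 0.03 without the low-yield library. Against the late 3KO.7TG grafts the median was −0.46, and −0.14 without that library. Between the 3KO.7TG groups it was −0.01. Within the list SOCS3 was highest and SOCS1 lowest in the 1KO.1TG grafts against the early 3KO.7TG grafts. SOCS3, a feedback inhibitor induced by IL-6 family signals through STAT3, had 2.76 ± 0.72 there (limma adjusted p = 0.170). SOCS1, an inhibitor induced by interferons, had −1.73 ± 0.43 there (limma adjusted p = 0.170). In the same comparison SOCS1 was called lower without the low-yield library (−1.72 ± 0.36, limma adjusted p = 0.0468). Both were chosen after their values were seen. Of the IL-1 receptor and inflammasome list 7 of 13 genes were on the panel, with medians of −0.05, −0.12 and 0.25 in the 3 comparisons and none called. The first of these was 0.33 without the low-yield library. All 7 lineage transcription factors of interleukin-producing T cells were on the panel, with medians of 0.58, 0.22 and 0.14 and none called. Over all probes the medians were −0.07, −0.06 and −0.02.

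Each biopsy also differed in its balance of macaque to pig signal, and some members ran with it, in a share near that of the whole panel by Pearson's r. For GUSB, SDHA, STK11IP and UBB the panel has a macaque and a pig version of the probe. The log2 ratio of the macaque version to the pig version, averaged over these 4 genes, is called the species index, and the species specificity of these probes was not checked. The index was −2.16, −0.56 and −2.54 in the 1KO.1TG grafts, −2.91, −1.45 and −1.61 in the late 3KO.7TG grafts, and −3.62, −3.11 and −1.34 in the early 3KO.7TG grafts, so it varied within every group. Each of 758 probes (all but the reference probes) was related to it over the 8 larger libraries with exact permutation tests, adjusted by Benjamini-Hochberg over the 758. By Pearson's r 8 of 45 members passed (17.8%), against 16.5% of all probes. With positive r 6 members passed (13.3%), against 8.05% of all probes. By Spearman's rho 4 members passed (8.89%), against 4.75% of all probes. The index had r = 0.83 with log2 effective size over these libraries, and with size removed no probe passed.

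IL17RA followed the index most closely of the members, with a Pearson r of 0.99 (exact permutation p = 7.44e-05, adjusted p = 0.0177) and a Spearman rho of 0.98 (exact permutation p = 3.97e-04, adjusted p = 0.0376). It had 101 CPM at the lowest index, in replicate 1 of the early 3KO.7TG grafts, and 328 CPM at the highest, in replicate 2 of the 1KO.1TG grafts. Its r was 0.996 with group means removed, 0.99 when the 2 libraries farthest from the median were left out, 0.98 with library size removed and 0.99 with all 9 libraries. With the 2 libraries left out or with size removed it did not pass the adjustment over all probes. The low-yield library gave 9 counts of IL17RA, which are within background.

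IL4R (r = 0.96, exact permutation p = 5.21e-04, adjusted p = 0.0197; rho = 0.98, exact permutation p = 3.97e-04, adjusted p = 0.0376) and IL2RA (r = 0.94, exact permutation p = 2.73e-04, adjusted p = 0.0177; rho = 0.93, exact permutation p = 0.00223, adjusted p = 0.0470) also passed by both measures. Without the 2 farthest libraries both had r = 0.90, and with library size removed both had r = 0.90. IL6, IL2RG and IL1RN passed by Pearson's r (0.86, 0.86 and 0.84, exact permutation adjusted p = 0.0472, 0.0441 and 0.0429), of which IL2RG also passed by rho (0.93, exact permutation adjusted p = 0.0470). Without the 2 farthest libraries these had r = 0.81, 0.67 and 0.75, and with size removed 0.58, 0.79 and 0.74. IL1B (r = 0.83) and IL10 (r = 0.83) came next and did not pass (exact permutation adjusted p = 0.0530 and 0.0516).

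On the negative side IL23R and IL22 passed (r = −0.90 and −0.82, exact permutation adjusted p = 0.0384 and 0.0429). Both gave at most 22 counts in every library, and their r with log2 effective library size was −0.82 and −0.56. Among members above background in at least 5 libraries the 3 lowest r belonged to IL12RB1 (−0.80), IL17RC (−0.75) and IL17RB (−0.71), none of which passed (exact permutation adjusted p = 0.0699, 0.101 and 0.121). The counts of IL17RC spanned only 169 to 263 over the 8 libraries, its r with log2 effective size was −0.82, and its r with the index was −0.88 with group means removed and −0.22 with size removed. With group means removed IL17RC passed (permutation adjusted p = 0.0182), a setting in which the p-values are only approximate. IL17RA and IL17RC, the paired chains of 1 receptor, thus had r of opposite sign, 0.99 and −0.75.

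**Figure D5:**
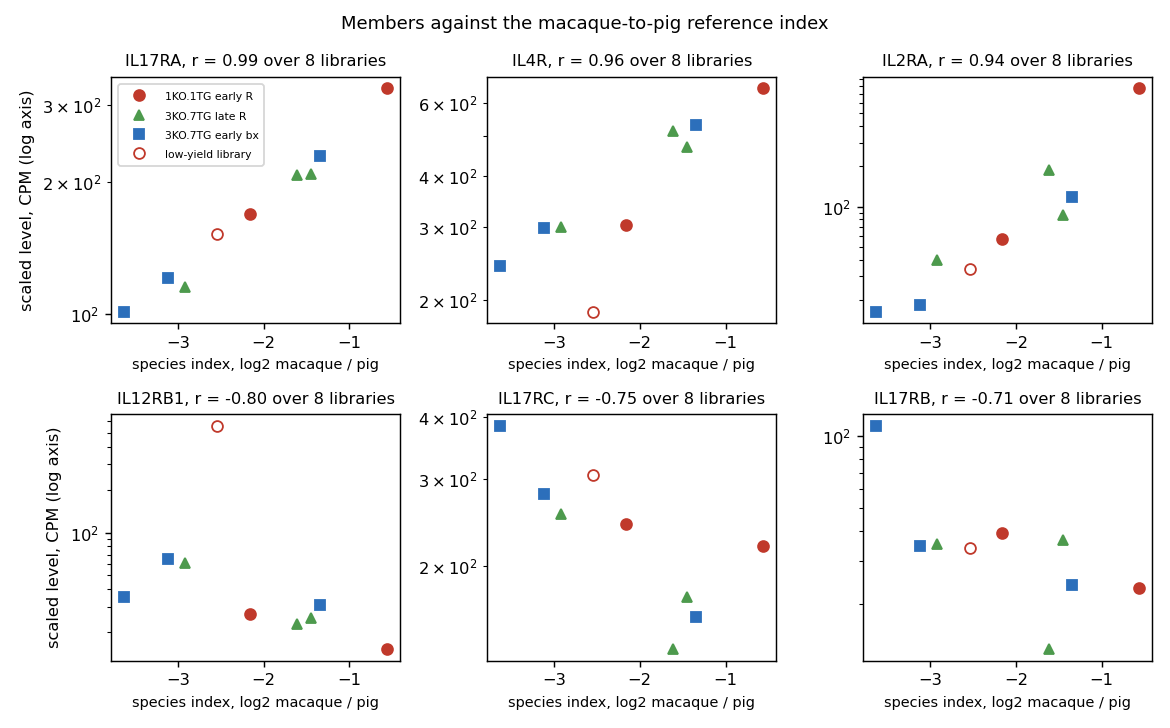
Scaled level (CPM, log axis) of 6 members against the species index of each library, macaque over pig probe on the log2 scale, averaged over 4 reference genes. The upper row shows the 3 members with the highest and the lower row the 3 with the lowest r among those above background in at least 5 libraries. IL17RA lies at 101 CPM at the lowest and 328 CPM at the highest index, and the low-yield library (open circle) stands far above the others for IL12RB1.

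With group means removed 11 members passed, 5 of the 8 above and IL10RA, IL15, IL17RC, IL1B, IL1RL1 and IL5. In that setting IL1RN, IL2RG and IL22 did not pass (permutation adjusted p = 0.0584, 0.0655 and 0.0761), and 198 of the 758 probes did. Removing group means ties the values of a group to each other, yet they were permuted across groups. These p-values are therefore not exact and can be too small, so the larger numbers are not read as a closer relation. No test of the members as a set was made. Of the 28 members above background in at least 5 libraries 21 had positive r, with a median of 0.55, against 52.4% and a median of 0.06 over the 758 probes. These 28 had passed a limit on counts and the panel had not. When the 2 farthest libraries were left out or library size was removed, no probe of the 758 passed (smallest exact permutation adjusted p = 0.208 and 0.0517). With 6 libraries a single ordering has a probability of 0.00139, so little could pass there. With all 9 libraries 7 probes passed by permutation, IL17RA and IL2RA among them (permutation adjusted p = 0.0152 and 0.0227).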

How the data were processed

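The deposited values are log2 values, described by the labels as nCounter panel results with no further step given. No scaling by the authors is stated in the labels. Raising 2 to each value gave whole numbers for 100% of them (relative tolerance 1e-04, smallest 1), with totals that differed between libraries, so they were taken as unscaled counts. Whether 1 had been added to them first is not known. Counts were tested with limma 3.58.1 in R 4.3.3: voom (offset 0.5), library sizes times trimmed-mean factors (trims 0.3 and 0.05), 3 group means over 9 libraries, with two-sided tests, Benjamini-Hochberg adjustment over all 767 probes and a threshold of 0.05. No count model was run. Errors of fold changes are moderated SE. The low-yield library had a factor of 2.71.

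The members, lists and tests were chosen with earlier results of these data known. Every member is named. Fold changes are given for the 5 smallest p-values per comparison, and for other members where stated, chosen after their values were seen. Alternatives covered scaling, offset, background, filters, weights, prior, samples, a replicate block and each left-out library. Scripts were tested on simulated data. The tubule markers are part of a longer kidney list, the rest of which is not reported here.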

Additional observations from a re-analysis of the deposited data

How the results depend on the processing

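No member was called in the reported fit in any comparison. Among the alternatives, 1 member was called between the 1KO.1TG and the early 3KO.7TG grafts with a weight per library (IL1B; 33 of all probes were then called, against 3), and leaving out single libraries gave 0 to 1 there, 0 to 1 against the late 3KO.7TG grafts (IL1R2 in both, when replicate 1 of the 1KO.1TG grafts was left out) and 0 to 0 between the 3KO.7TG groups. Of 345 fold changes of the named members under alternatives, 340 kept their direction and side of the threshold, and 3 passed it. On the unscaled values 2 reversed, IL10RB to −0.28 in the first comparison and IL17RC to 0.038 in the third. Sizes depended on the scaling and on single libraries. In the first comparison IL1B spanned 0.53 to 2.58 over all alternatives, IL1R2 1.71 to 4.51, IL1RN 0.98 to 2.60 and IL6ST −1.90 to −0.20. Both ends for IL1R2 here, and for IL6 in the third comparison, came from leaving out a single library. In the second IL1RN spanned 0.0051 to 1.84, IL10RA −2.52 to −0.39, IL6ST −2.25 to −0.42 and IL18 −2.36 to −0.43, and in the third IL18 0.40 to 1.28, IL2RB −0.93 to −0.12 and IL6 0.46 to 1.87. On the unscaled values the median of all probes was itself shifted, to −0.77, −1.40 and 0.55 in the 3 comparisons. With pig reference probes it was 0.81, 0.38 and 0.43 and with macaque ones −0.43, −0.15 and −0.27. In the reported fit it was −0.07, −0.06 and −0.02. With the replicate block no member was called (0), and the smallest adjusted p-values of a member with limma were 0.187, 0.435 and 0.993. Deviations from group means correlated at −0.45 to 0.48 over the 9 pairs of libraries with equal replicate numbers, and at −0.53 to 0.47 over the 18 with different numbers. With 3 libraries per group this cannot decide whether equal numbers pair the samples. The number of members related to the index was 8. With group means removed, where permutation p-values are only approximate, it was 11 (198 of all probes, against 125). It was 9 with median scaling, 0 without the 2 farthest libraries, 0 with library size removed (added after the data were seen) and 2 with all 9 libraries. Members above background in at least 5 libraries numbered 31 with each library's own viral mean plus 2 SD as the limit and 20 at 34 counts, against 28. Fold changes in the first 2 comparisons rest on 2 libraries of useful depth in the 1KO.1TG grafts.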
